A study of Rattus norvegicus with 80 samples.

Results

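Cultured mammary fibroblasts of the rat line labelled PS were compared with wildtype mammary fibroblasts by RNA sequencing. The comparison holds 6 libraries, 3 per genotype, out of 80 in the series and 12 of fibroblasts. The libraries of the comparison are those whose labels give fibroblasts as the tissue and PS or wildtype as the genotype. The series covers rats of 3 lines with mutations of Nf1 and wildtype rats, with tumors, whole pads, mature adipocytes, mammary epithelial cells (MECs) and fibroblasts. The labels name the lines IF, PS and IFPS, do not spell the names out and give neither the allele, zygosity, age, animal nor culture batch of a library. Fibroblasts were plated in wells and lysed near confluency for RNA extraction on a column, and the labels name no agent added to any culture. The series text calls the normal cell types flow sorted, whereas the extraction protocol speaks of cultured fibroblasts. Nothing states that the 3 libraries of a genotype came from separate rats, so the p-values measure only the spread between these libraries, which may be technical.

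Nf1 encodes neurofibromin, a GTPase-activating protein that returns Ras to its inactive form, and loss of neurofibromin raises signaling through Ras to the ERK kinases. Mammary fibroblasts are the connective tissue cells around ducts and between fat lobules. They secrete collagens and other matrix proteins and exchange growth signals with the epithelium. The table names genes by Ensembl identifier, and 0 of 32883 identifiers could be matched to a symbol. No gene, pathway or marker can therefore be named, and the level of Nf1 was not analysed here. Genes are described below by level, size of change, tissue of highest expression and behaviour in the other tissues of the same lines.

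The 3 PS libraries held 34578130, 35987316 and 37293141 counts, and the 3 wildtype libraries held 24359974, 26769322 and 27373203. Each PS library was deeper than every other fibroblast library, the IF and IFPS libraries holding between 25532664 and 31988867 counts. The number of genes with at least 1 count lay between 17187 and 17567 in the 12 fibroblast libraries. No pair of fibroblast libraries of one genotype agreed within sampling noise, with a lowest chi-square of 10.7 per degree of freedom.

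Wildtype libraries differed more from each other than PS libraries did. Distance between libraries was measured as the median over genes of the absolute difference in log2 CPM (counts of a gene per 1000000 counts of its library, after TMM scaling). It was 0.10, 0.12 and 0.13 for the 3 pairs of PS libraries, and between 0.16 and 0.23 for the 3 pairs of wildtype libraries. The 9 pairs of a PS with a wildtype library lay between 0.19 and 0.31, so the 2 ranges that involve wildtype libraries overlapped. Wildtype replicate 3 stood apart: its distance from the 3 IFPS libraries was 0.11 to 0.16, below its distance of 0.16 and 0.23 from the other wildtype libraries. Its distance from the PS libraries was 0.27 to 0.31, against 0.19 to 0.23 for wildtype replicates 1 and 2. The main counts are therefore given with and without it.

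Genes enriched in one cell type were used in place of named markers to check the label. They were defined in the IFPS libraries, whose fibroblasts helped to estimate the spread but not the difference. Members were at least 4-fold higher in 1 of the 3 isolated cell types than in each of the others. Pad-enriched genes were at least 4-fold higher in whole pads than in each of the 3 cell types. The 222 fibroblast-enriched genes took 102977 to 120534 counts per 1000000 in wildtype fibroblasts and 118040 to 126520 in PS fibroblasts. The same genes took 14259 to 20757 counts per 1000000 in wildtype and PS MECs and 2808 to 4148 in adipocytes. Each of the 222 genes had counts in each of the 12 fibroblast libraries. The 677 MEC-enriched genes took 1889 to 4153 counts per 1000000 in wildtype and 2118 to 3029 in PS fibroblasts, against 38380 to 51994 in MECs of the same 2 genotypes. On these genes the libraries of both genotypes stood with fibroblasts.

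PS fibroblasts differed from wildtype fibroblasts at 3016 of 13879 genes tested, which is 21.7%. Of these, 1466 genes were higher in PS fibroblasts (10.6%) and 1550 were lower (11.2%). The call required a Benjamini-Hochberg adjusted p under 0.05 in edgeR's quasi-likelihood test, fitted over the 12 fibroblast libraries. Most changes were small. The median log2 fold change was 0.45 for higher genes, with quartiles of 0.29 and 0.89 and a median standard error of 0.10. For lower genes it was -0.49, with quartiles of -0.86 and -0.32 and a median standard error of 0.11. The median over all genes tested was 0.00, which TMM scaling aims for. PS and wildtype libraries did not overlap in CPM at 5408 genes, or 39% of those tested, and at 1434 of the higher and 1514 of the lower genes.

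**Figure D1:**
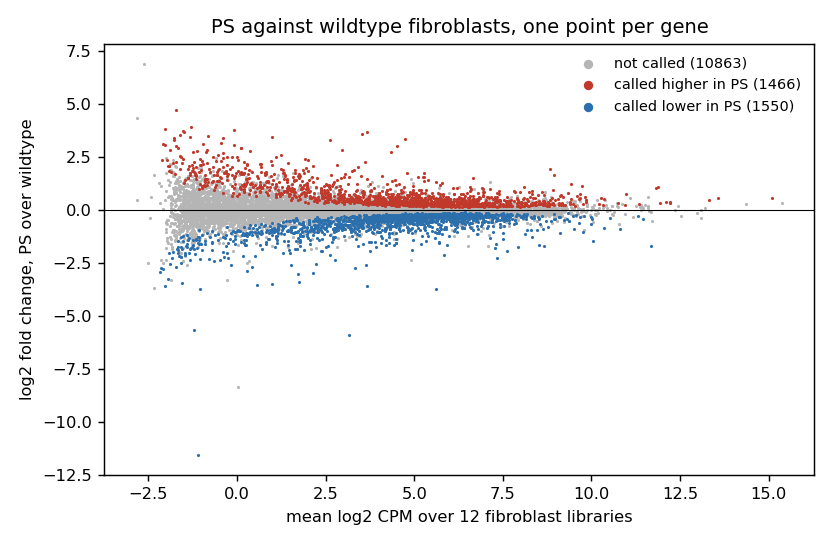
Log2 fold change of PS over wildtype fibroblasts (vertical axis) against the mean log2 CPM over the 12 fibroblast libraries (horizontal axis), with 1 point per gene. The 1466 genes called higher and 1550 called lower lie close to 0 at high levels and spread to larger changes at low levels.

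Large changes were the minority in both directions. A change of at least 1.5-fold was seen at 572 higher and 618 lower genes, and a change of at least 2-fold at 318 higher and 285 lower genes. At least 4-fold changes were called at 87 higher and 52 lower genes, and at least 8-fold changes at 24 and 13. Genes that were nearly off in one genotype and on in the other were rare. Only 1 gene lay under 0.5 CPM in every wildtype and over 2 CPM in every PS library, and only 1 gene showed the opposite pattern.

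Among called genes, the larger changes were found at weakly expressed genes. A weakly expressed gene passes the threshold only with a larger change, so the sizes and shares by level are partly set by the test. Of the 1738 genes with a mean under 1 CPM, 12% were called, and the called genes had a median absolute log2 fold change of 1.76. Of the 4850 genes between 20 and 100 CPM, 26% were called, with a median absolute change of 0.34. Of the 1754 genes at 100 CPM or more, 265 were higher and 217 lower, with the same median of 0.34. Among the 603 genes changed at least 2-fold, 197 had a mean under 1 CPM and 222 a mean between 1 and 5 CPM. In the 10 genes with the highest level in PS fibroblasts, 5 were called higher and 0 lower, and 8 of these 10 were also among the 10 highest in wildtype fibroblasts. Among the 100 highest genes over all fibroblasts, 21 were higher and 11 lower, with no absolute log2 fold change above 1.70 among those called. The corresponding shares of all genes were 10.6% higher and 11.2% lower. The first 10 genes were picked by their level in PS fibroblasts, which favours genes that are higher there.

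The share of the transcriptome that the called genes occupied was read from each library as a description, since the same libraries chose the genes. Genes called higher took 18.4%, 18.5% and 16.3% of counts in the wildtype libraries and 23.2%, 24.9% and 23.3% in the PS libraries. Their mean share was 17.8% ± 1.24 (SD, n = 3) in wildtype and 23.8% ± 0.956 (SD, n = 3) in PS fibroblasts. Genes called lower took 11.6% ± 0.754 (SD, n = 3) of counts in wildtype and 7.57% ± 0.395 (SD, n = 3) in PS fibroblasts. IF libraries, which helped to estimate the spread but not the difference, held 20.6% ± 0.415 (SD, n = 3) of counts in the higher genes and 9.28% ± 0.214 (SD, n = 3) in the lower genes. The corresponding shares in IFPS libraries were 16.1% ± 0.444 and 12.1% ± 0.429 (SD, n = 3 each). The IF libraries thus lay between wildtype and PS in both shares. Genes chosen for a difference between PS and wildtype favour such a place for another genotype, so the order is description only. The IFPS libraries lay on the wildtype side, their mean below that of wildtype for the higher genes and above it for the lower genes.

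The number of genes called depended on single libraries. It was 1152 without PS replicate 2, 1379 without wildtype replicate 3 and 1656 without PS replicate 3, and it rose to 3427 without wildtype replicate 1. A fit of only the PS and wildtype libraries called 1265 genes. Of the 1379 genes called without wildtype replicate 3, 1330 were among the 3016. Of the 1152 called without PS replicate 2, 1124 were. Without wildtype replicate 3, 147 higher and 154 lower genes changed at least 2-fold and 44 in each direction at least 4-fold, with median log2 fold changes of 0.49 and -0.52. The libraries that remained did not overlap at 6506 of 14110 genes, a count that 2 wildtype libraries reach more easily than 3. The share called was then 4.09% under 1 CPM and 13.6% at 100 CPM or more, again higher at levels where smaller changes can pass. The genes called without it took 9.05% to 9.20% of counts in wildtype replicates 1 and 2 and 12.2% to 13.4% in PS libraries where higher, and 5.60% to 5.91% and 3.25% to 3.59% where lower. The split between directions stayed near even, 46% to 50.3% of calls being higher when any 1 of the 6 libraries was left out.

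**Figure D2:**
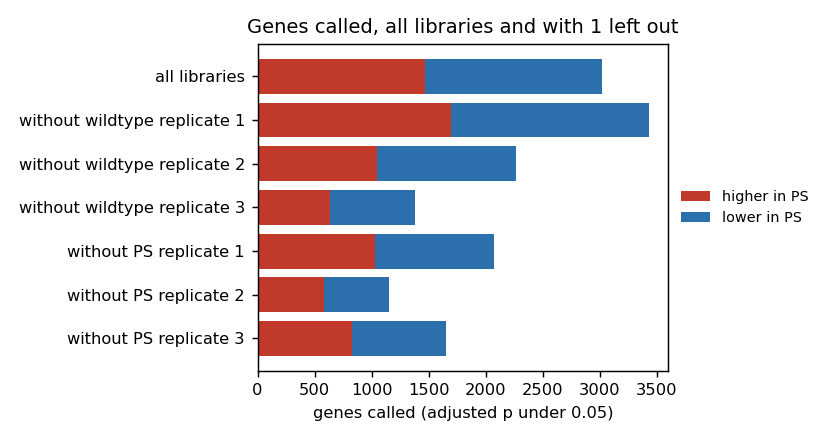
Number of genes called at an adjusted p under 0.05 (horizontal axis), split into genes higher and lower in PS, with all libraries and with each of the 6 libraries left out in turn. The total runs from 1152 without PS replicate 2 to 3427 without wildtype replicate 1, and both directions shrink or grow together.

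Direct tests placed PS fibroblasts against the other mutated lines in the same fit. These comparisons share the 3 PS libraries with the comparison to wildtype, so the counts are given side by side only. PS differed from IF fibroblasts at 663 genes (4.78%), of which 320 were higher and 343 lower in PS. DESeq2 called 1301 genes there, and edgeR called 166 without PS replicate 2, 183 without PS replicate 1, 305 without PS replicate 3, 194 without IF replicate 2 and 243 without IF replicate 3. PS differed from IFPS fibroblasts at 5617 genes (40.5%), 2791 higher and 2826 lower in PS. Median distances between libraries were 0.18 for PS with IF, 0.23 for PS with wildtype and 0.30 for PS with IFPS.

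Genes of other mammary cell types were examined next, because a culture can hold other cells and fibroblasts can express such genes at a low level. In bulk RNA, fewer cells of a type and less RNA per cell cannot be told apart. Of the 222 fibroblast-enriched genes, 25 were called higher (11.3%) and 30 lower (13.5%), close to the 10.6% and 11.2% of all genes, with a median log2 fold change of -0.10. Of the 913 adipocyte-enriched genes, 694 were expressed highly enough to be tested. Among those, 136 were higher (19.6%) and 56 lower (8.07%), with a median of 0.13, a value that changed to 0.28 on leaving out wildtype replicate 1 and to 0.08 on leaving out wildtype replicate 3. Of the 699 pad-enriched genes, which were higher in whole pads than in the 3 isolated cell types, 315 were tested, and 64 were higher (20.3%) and 15 lower (4.76%), with a median of 0.51. Of the 677 MEC-enriched genes, 476 were tested, and 44 were higher (9.24%) and 20 lower (4.2%), with a median of 0.20. The median log2 CPM over wildtype and PS libraries was -0.65 to 0.40 for pad-enriched and -0.18 to 0.58 for MEC-enriched genes tested. Of all 1738 genes with a mean under 1 CPM, 121 were higher and 88 lower. Between 1 and 5 CPM it was 210 and 182 of 2183. All genes are thus not a background matched for level, and a comparison at equal level was not made. Members that passed the expression filter through the PS libraries alone had to differ, so these counts describe only the members tested. Genes of the adipocyte, pad and MEC sets were chosen for low levels in IFPS fibroblasts. The median distance from IFPS libraries was 0.30 for PS and 0.18 for wildtype libraries. The choice may thus favour higher calls in these sets and lower calls in the fibroblast-enriched set, which was not tested.

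**Figure D3:**
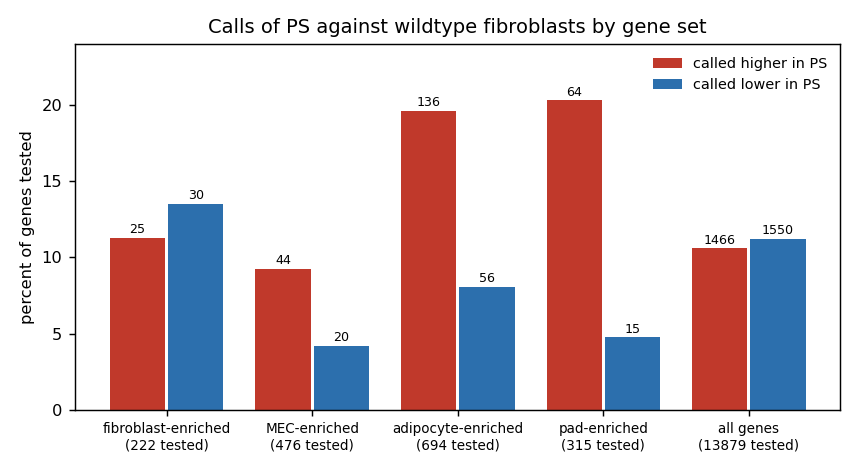
Percent of genes tested (vertical axis) that were called higher or lower in PS fibroblasts, for genes enriched in each cell type and for all genes. Numbers above bars are genes called. With sets defined in the IFPS libraries, the higher bar stands near 20 percent for adipocyte-enriched and pad-enriched genes, against 10.6 for all genes.

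Summed levels of the sets overlapped between the genotypes. Adipocyte-enriched genes took 1.94% to 2.67% of counts in wildtype and 1.93% to 2.09% in PS fibroblasts. MEC-enriched genes took 0.189% to 0.415% in wildtype and 0.212% to 0.303% in PS fibroblasts. Pad-enriched genes took 837, 633 and 551 counts per 1000000 in the wildtype libraries and 761, 1074 and 991 in the PS libraries, so 2 of 3 PS libraries lay above every wildtype library and 1 lay within the wildtype range. Wildtype replicate 1 had the highest sum of wildtype libraries for each of the 3 sets, 26710 counts per 1000000 for the adipocyte-enriched and 4153 for the MEC-enriched genes. The part of other cell types in the PS difference was not tested.

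Set counts moved with single libraries, as did the calls over all genes. Without wildtype replicate 3, 4.53% of all genes were higher and 5.24% lower, and without PS replicate 2 the shares were 4.12% and 4.07%. Of the adipocyte-enriched genes, 46 were then higher and 37 lower (6.44% and 5.18%) without wildtype replicate 3, and 51 and 22 (7.24% and 3.12%) without PS replicate 2. The pad-enriched counts were 19 and 11 (5.49% and 3.18%) and 18 and 4 (5.44% and 1.21%) in the same order. For the MEC-enriched genes they were 18 and 9 (3.58% and 1.79%) and 13 and 9 (2.6% and 1.8%), and for the fibroblast-enriched genes 11 and 10 (4.95% and 4.5%) and 8 and 6 (3.6% and 2.7%). The higher share of adipocyte-enriched and pad-enriched genes stayed above that of all genes in both cases, by fewer percentage points than with all libraries.

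Other libraries moved these counts too. Without PS replicate 3, when 5.86% of all genes were higher and 5.91% lower, the adipocyte-enriched counts were 66 and 34 (9.39% and 4.84%), the pad-enriched 30 and 7 (8.9% and 2.08%), the MEC-enriched 26 and 10 (5.19% and 2%) and the fibroblast-enriched 14 and 10 (6.31% and 4.5%). Without wildtype replicate 2, when 7.39% and 8.67% of all genes were called, the adipocyte-enriched counts were 83 and 50 (11.6% and 7.01%) and the pad-enriched 36 and 14 (10.5% and 4.08%). Without PS replicate 1, when 7.33% and 7.39% of all genes were called, the fibroblast-enriched counts were 12 and 18 (5.41% and 8.11%). The pad-enriched counts were then 78 and 7 (22.9% and 2.05%). Without wildtype replicate 1, when 12% and 12.3% of all genes were called, the pad-enriched counts were 82 and 7 (23.9% and 2.04%). When sets were defined in the IF libraries instead, the adipocyte-enriched counts were 125 and 68 (17.6% and 9.58%). The pad-enriched counts were 15 and 9 of 124 tested (12.1% and 7.26%), closer to the 10.6% and 11.2% of all genes. The same change turned the MEC-enriched genes to 15 higher and 27 lower (4.57% and 8.23%). It turned the fibroblast-enriched genes to 44 higher and 29 lower (18% and 11.8%). Counts thinned to equal depth gave 128 and 51 adipocyte-enriched (18.7% and 7.45%) and 57 and 16 pad-enriched genes (19.5% and 5.48%). The shares of all genes were then 9.72% and 10.5%.

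The identifiers with the largest change in each direction are given with their levels in each library. They were taken as the 2 largest and 2 smallest log2 fold changes among called genes without overlap of the libraries and with a mean of at least 5 CPM in the higher genotype. The tests of PS against IF and IFPS reuse the PS libraries that chose these identifiers. Their adjusted p-values are therefore not separate support for a difference particular to PS. Levels are CPM scaled within the fibroblast libraries and are not corrected for gene length, so they compare libraries and not genes.

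ENSRNOG00000030187 had the largest increase. It stood at 8.40, 6.41 and 2.17 CPM in the wildtype and at 42.9, 89.0 and 79.9 CPM in the PS libraries. The lowest PS library was above the highest wildtype library by a wide margin. The IF libraries, at 17.9, 12.2 and 35.3 CPM, lay between those of wildtype and PS, and the IFPS libraries, at 4.60, 2.73 and 4.35 CPM, lay within the wildtype range. The log2 fold change over wildtype was 3.65 ± 0.50 (SE), with an adjusted p of 0.00218 in edgeR. PS was also above IFPS, by 4.19 ± 0.52 (SE, adjusted p = 0.000265), while the difference of 1.70 ± 0.45 (SE) from IF missed the threshold at an adjusted p of 0.056.

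ENSRNOG00000005825 showed a similar order of genotypes. Its level was 8.20, 6.93 and 1.88 CPM in the wildtype and 24, 120 and 55.4 CPM in the PS libraries. PS replicate 2 was the highest and PS replicate 1 the lowest of the PS libraries, all of them above wildtype. The IF libraries held 19.6, 13.1 and 24 CPM and the IFPS libraries 4.86, 2.17 and 3.93 CPM. The log2 fold change over wildtype was 3.57 ± 0.62 (SE), with an adjusted p of 0.00539. Its difference from IF, 1.82 ± 0.55 (SE), had an adjusted p of 0.0861, and that from IFPS, 4.2 ± 0.64 (SE), one of 0.000654.

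ENSRNOG00000061254 was nearly lost in PS fibroblasts alone among the 4 genotypes. It measured 43.5, 31.5 and 21.3 CPM in the wildtype libraries and 0.393, 0.697 and 0.50 CPM in the PS libraries. The IF libraries were at 26.1, 15.6 and 13.8 CPM and the IFPS libraries at 24, 11.5 and 25.1 CPM, so 9 libraries of 3 genotypes lay above 11 CPM and the 3 PS libraries below 1 CPM. PS was lower than wildtype by a log2 fold change of -5.90 ± 0.47 (SE, adjusted p = 0.000119). PS was also lower than IF, at -5.11 ± 0.47 (SE, adjusted p = 0.000776), and lower than IFPS, at -5.23 ± 0.47 (SE, adjusted p = 0.000128).

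ENSRNOG00000057811 was by far highest in 1 wildtype library and nearly absent from the PS libraries. It had 3022, 12 and 75 counts in the wildtype libraries and 0, 0 and 1 in the PS libraries, or 126, 0.447 and 2.66 CPM against at most 0.0278 CPM. The IF libraries held 4 to 12 counts and the IFPS libraries 5 to 11, so wildtype replicate 1 exceeded every other fibroblast library. Pooled counts per depth were 4270 times higher in wildtype than in PS, with an exact 95% interval of 766 to 169000 for counting error only. Without wildtype replicate 1 the ratio was 173, with an interval of 30.3 to 6920. The adjusted p was 0.0129, and it was 0.00374 without wildtype replicate 1. The call was lost without PS replicate 2 (adjusted p = 0.0573), without PS replicate 3 (adjusted p = 0.0573) and in a fit of only the wildtype and PS libraries (adjusted p = 0.0658). The differences of PS from IF and from IFPS missed the threshold in edgeR, with adjusted p of 0.712 and 0.532. The fitted fold change of such a gene depends on the prior count and is not given as a size.

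The same genotypes were measured in cultured MECs, which share no library with the fibroblasts and allow a test of whether the PS effect differs between the 2 cell types. In MECs, 347 of 14688 genes were called between PS and wildtype (2.36%). The difference of the PS effects, fibroblasts minus MECs, passed the threshold at 1705 of 15224 genes (11.2%) in a fit of 24 libraries. It was more positive in fibroblasts at 794 genes and more negative at 911, with a median absolute difference of 0.58 on the log2 scale. Of the 1661 of these genes with both effects estimated, 1319 had effects of opposite sign, and at 1315 the larger absolute effect was that in fibroblasts. A gene is more readily called when its effects have opposite signs, so the first of these counts is partly set by the test. PS effects were also wider in fibroblasts over all genes, with quartiles of -0.20 and 0.20 against -0.12 and 0.14 in MECs. The second count is thus not particular to the called genes. The corresponding shares over all genes were not computed, so neither count is read as a result. The total was 893 without PS fibroblast replicate 2, 996 without PS MEC replicate 3, 1055 without wildtype fibroblast replicate 3 and 1116 without wildtype MEC replicate 1.

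Of the identifiers above, ENSRNOG00000061254 moved in opposite directions in the 2 cell types. In MECs it measured 1.43, 1.12 and 0.933 CPM in the wildtype and 71.9, 58.0 and 10.8 CPM in the PS libraries. The PS effect was 5.33 ± 0.63 (SE, adjusted p = 0.00328) on the log2 scale in MECs against -5.90 in fibroblasts, a difference of -11.23 ± 0.86 (SE, adjusted p = 2.27e-07). The IF and IFPS MEC libraries, between 48.8 and 113 CPM, were also high, while in fibroblasts these lines stood near wildtype. ENSRNOG00000030187 was 0.510 to 0.676 CPM in wildtype and 0.982 to 1.54 CPM in PS MECs, and its PS effect differed between the cell types by 2.60 ± 0.76 (SE, adjusted p = 0.0339). ENSRNOG00000005825 was at most 0.218 CPM in any MEC library, and the difference of its PS effects had an adjusted p of 0.447. ENSRNOG00000057811 had 3, 1 and 0 counts in the wildtype and 959, 30 and 3 in the PS MEC libraries, again with 1 library far above its group. The difference of its PS effects passed with an adjusted p of 0.0188. These identifiers were chosen by their change in the same fibroblast libraries, which favours a large difference from MECs. The adjusted p-values of the differences are therefore not separate support.

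In pads ENSRNOG00000061254 took both directions. Pads with title numbers 1 to 12 held 2.37 to 8.48 CPM in wildtype and 85.3 to 107 CPM in PS libraries. Pads with title numbers 13 to 21 held 68.8 to 104 CPM in wildtype and 2.96 to 5.18 CPM in PS libraries. The genotypes did not overlap in either set of pads, and the order was reversed between them, although neither difference passed the threshold (adjusted p of 0.178 and 0.205). In adipocytes it lay at 0.946 to 5.43 CPM in wildtype and at 1.08, 32.2 and 33.1 CPM in PS libraries. Libraries of 1 genotype also split in pads. IF pads numbered 1 to 12 held 1.30, 2.04 and 94.1 CPM, and IFPS pads numbered 13 to 21 held 63.9, 0.385 and 1.29 CPM. IFPS pads numbered 1 to 12 held 2.29 to 10.1 CPM. ENSRNOG00000057811 was at most 0.691 CPM in wildtype and 1.65 to 26.7 CPM in PS pads of the first set. In the second set it was 17.7 to 299 CPM in wildtype and at most 0.0615 CPM in PS pads. Both identifiers that fell most in PS fibroblasts were high in different genotypes in different tissues and sets of pads. Each also differed widely between some libraries of the same genotype and tissue.

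The 2 identifiers that rose most in PS fibroblasts were not called between PS and wildtype in adipocytes or either set of pads. Of these, ENSRNOG00000005825 was too low in MECs to be tested there, and ENSRNOG00000030187 missed the threshold in MECs with an adjusted p of 0.0557. ENSRNOG00000005825 was far more abundant in pads, at 164 to 1233 CPM over wildtype and PS libraries of both sets, than in the fibroblasts. Its wildtype and PS adipocyte libraries overlapped, at 9.93 to 20.6 and 12.6 to 20.6 CPM. ENSRNOG00000030187 stood at 17.3 to 61.4 CPM in wildtype and 10.3 to 20.9 CPM in PS adipocytes, and at 1.04 to 8.05 CPM over wildtype and PS pads.

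**Figure D4:**
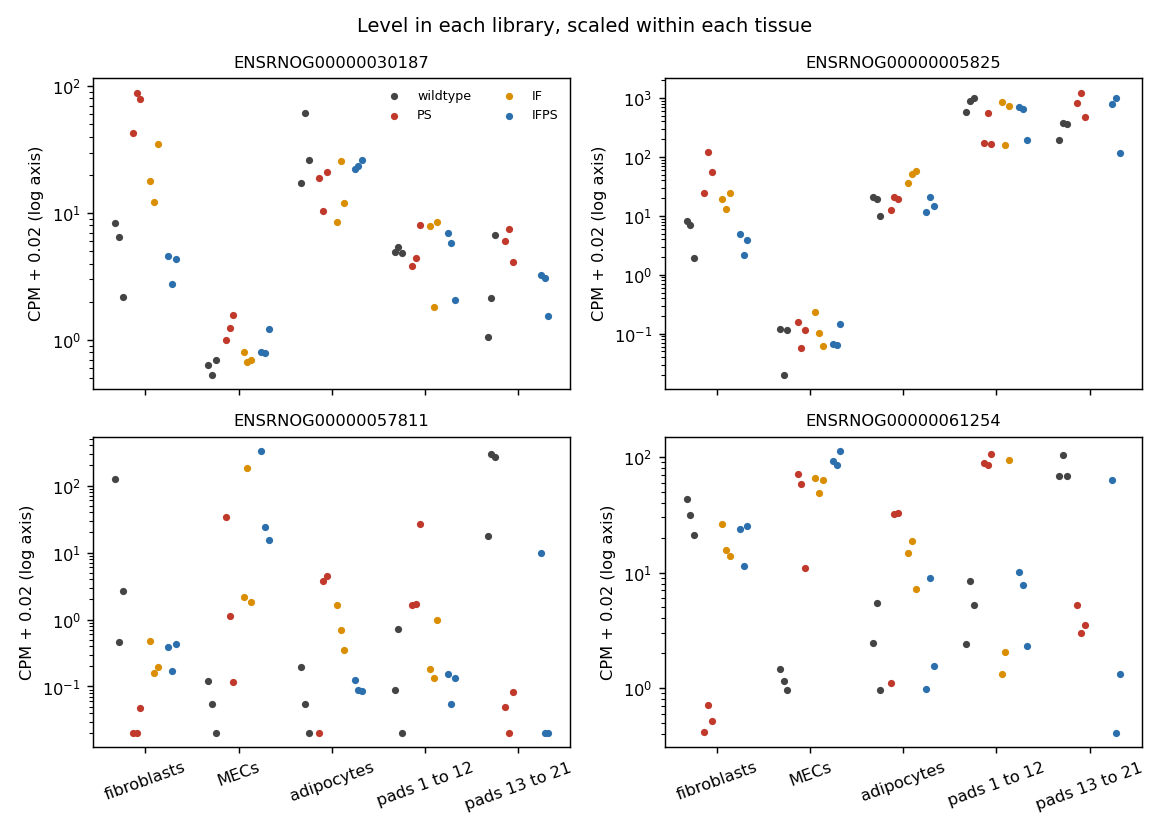
CPM plus 0.02 on a log axis (vertical) in each library of 5 tissues (horizontal) for the 4 identifiers, with 1 point per library and colors for the 4 genotypes. PS points stand above wildtype points in fibroblasts for ENSRNOG00000030187 and ENSRNOG00000005825 and below them for ENSRNOG00000057811 and ENSRNOG00000061254, and the order of the last differs between fibroblasts, MECs and the sets of pads.

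Genes changed in PS fibroblasts were then followed as groups in the other tissues, whose libraries did not enter the selection. Fibroblast and MEC libraries with the same title number deviated together (correlations of 0.10 to 0.27 over genes in 12 pairs). With adipocytes these correlations were -0.06 to 0.25, and 8 of 12 libraries correlated best with their own number. With pads numbered 1 to 12 they were -0.07 to 0.20, and 7 of 12 did. The values of these tissues, most of all MECs, may therefore not be independent of the selection. In MECs, 1388 of the genes higher in PS fibroblasts were measured, with a median PS effect of 0.03 and 56.6% of effects above 0, against 49.3% of all genes. The 1534 lower genes had a median of -0.04, with 39% above 0. Of these lower genes 44 were called higher and 29 called lower in MECs, which is 2.87% and 1.89%. Of the higher genes 30 were called higher and 18 lower in MECs (2.16% and 1.3%). Over all genes in MECs the shares were 1.41% and 0.953%. In adipocytes the medians were 0.03 for the higher and -0.08 for the lower genes, with 56.2% and 34% above 0, against 49.1% of all genes. The medians thus had the sign seen in fibroblasts in both tissues, but were much smaller. Their sign was the same whichever of the 6 fibroblast libraries was left out of the calls. That changes only which genes are listed. No MEC or adipocyte library was left out, so the dependence of these medians on single libraries of those tissues was not tested.

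Pads gave a different picture. In pads numbered 1 to 12 the median effect was 0.01 for the higher and 0.05 for the lower genes, with 52% and 57.9% above 0, against 53.3% of all genes. In pads numbered 13 to 21 it was -0.06 for the higher and 0.11 for the lower genes, with 43.7% and 62.1% above 0, against 50.8% of all genes. The median of the higher genes in the first set of pads ranged from 0.00 to 0.03 when single fibroblast libraries were left out. In the second set the higher genes stayed between -0.10 and -0.03 and the lower genes between 0.11 and 0.14, opposite in sign to the fibroblasts. Each tissue has only 3 PS and 3 wildtype libraries per set, genes are not independent replicates, and no test was made on these medians.

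Genes changed at least 2-fold in PS fibroblasts are given apart, again with no test. The 242 higher genes measured in MECs had a median PS effect of 0.20 there, with 71.1% above 0. The 275 measured in adipocytes had a median of -0.20, with 33.5% above 0, opposite in sign to fibroblasts. Genes at least 2-fold lower were negative in adipocytes too, with 30.3% above 0, against 49.1% of all genes. The sign in adipocytes thus did not follow the direction in fibroblasts. In pads the medians of the strongly higher genes were -0.07 in the first and 0.25 in the second set. The strongly lower genes had medians of -0.08 in MECs, -0.29 in adipocytes, 0.12 in the first and 0.11 in the second set of pads, the last being the same as for all lower genes. When single fibroblast libraries were left out, the medians of the strongly higher genes ranged from 0.15 to 0.27 in MECs, -0.21 to -0.17 in adipocytes, -0.18 to 0.09 in the first and 0.12 to 0.33 in the second set of pads. Those of the strongly lower genes ranged from -0.08 to -0.05, -0.32 to -0.16, 0.09 to 0.34 and -0.02 to 0.15 in the same order. The sign for the strongly higher genes in the first set of pads was positive without wildtype replicate 3 (0.07), PS replicate 2 (0.09) or PS replicate 3 (0.04), and that for the strongly lower genes in the second set was negative without wildtype replicate 3 (-0.02).

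**Figure D5:**
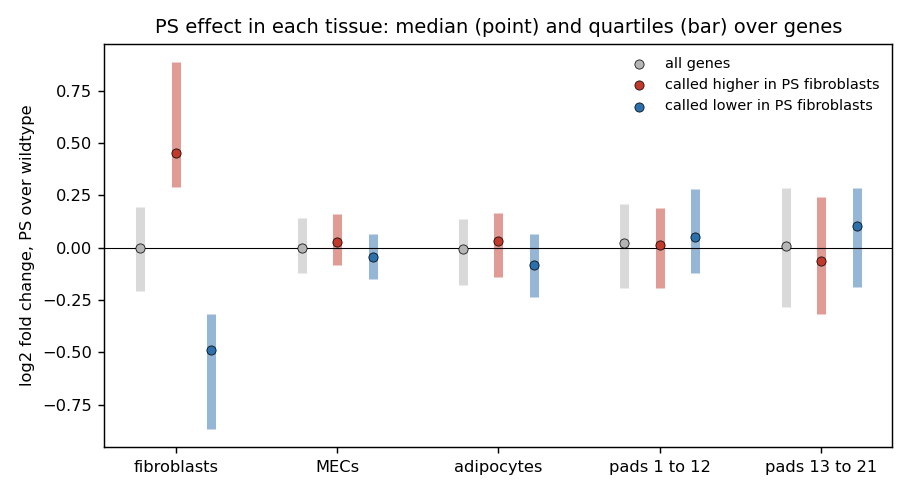
Log2 fold change of PS over wildtype (vertical axis) in 5 tissues (horizontal axis) for all genes and for genes called higher or lower in PS fibroblasts, with points for medians and bars for quartiles over genes. The fibroblast values chose the genes, and in the other tissues the medians lie between -0.08 and 0.11, within the quartiles of all genes.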

How the data were processed

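Gene counts, whole numbers of reads per Ensembl identifier, were used as deposited. The submitters' processing notes name Trim Galore, STAR 2.5.2b and the build Rnor_6.0, and the labels' protocols give poly(A) libraries read as paired ends of 50 bp. The counting tool, annotation release and strand setting are not given in the sources used here, so paralogs, overlapping and antisense genes are uncertain. Groups were taken from the title, tissue and genotype labels. Counts were tested with edgeR 4.0.16 (limma 3.58.1, R 4.3.3): TMM, filterByExpr, glmQLFit and glmQLFTest, Benjamini-Hochberg adjustment over all genes tested, and a threshold of 0.05. The fibroblast fit held all 12 fibroblast libraries with no covariate, and the fit across cell types held 24 libraries. MECs, adipocytes and each set of pads were fitted separately and scaled within tissue. Log2 CPM used a prior count of 2. DESeq2 1.42.0, RLE size factors, no filter, thinning to the shallowest library, fits of fewer groups and each library left out were alternatives. Enriched sets required at least 4-fold higher mean CPM in IFPS libraries, a mean log2 CPM of at least 1 and no overlap with the other tissues. These sets, the follow-up in other tissues and the 2-fold limit were added after the data were seen. The comparison and lists were chosen with earlier results of these data known. The 20 gene lists and 10 marker lists needed symbols and were not analysed. The rule for named genes then left at most 2 identifiers per direction. In simulated counts for PS against wildtype fibroblasts over the genes tested, 79% of genes changed 2-fold and 93% of those changed 4-fold were recovered, with 4.97% of calls false. For the difference between fibroblasts and MECs, 57% and 86% were recovered, with 4.67% of calls false. The simulation drew independent libraries with 1 spread per gene for all genotypes and changed 100 genes at each fold. In the data 3016 genes were called, and the median SD of log2 CPM was 0.16 in wildtype and 0.10 in PS fibroblasts. The simulation therefore does not give the false share among the real calls.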

Additional observations from a re-analysis of the deposited data

Results flagged for a closer look

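The PS effect differed between fibroblasts and MECs at 1705 genes by an interaction test in edgeR, and 3 of the printed identifiers passed it. The identifiers had been chosen by their change in the same fibroblast libraries, which favours a large difference. The difference of the PS effects, fibroblasts minus MECs, was 2.60 on the log2 scale for ENSRNOG00000030187, where PS libraries were above wildtype in both cell types. For ENSRNOG00000061254 it was -11.23, with PS below wildtype in 3 of 3 fibroblast and above it in 3 of 3 MEC libraries. For ENSRNOG00000057811 the fitted difference was -19.47, a value that depends on the prior count because PS fibroblasts had 1 count in all and wildtype MECs had 4.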

How the results depend on the processing

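The count of genes different between PS and wildtype fibroblasts was 3016. It was 3022 with RLE size factors, 2524 without the filter, 3456 with DESeq2 and 2769 at equal depth. It was 1265 when only the PS and wildtype libraries were fitted, and 603 when a change of at least 2-fold was also asked, a limit chosen after seeing the data. Leaving out 1 library gave 1152 to 3427 genes. PS against IF gave 663 genes, 1301 with DESeq2 and 166 to 483 with 1 library left out. PS against IFPS gave 5617 genes and 4227 to 4973 with 1 left out. With no libraries of other genotypes in the fit, PS against IF gave 680 genes and PS against IFPS gave 5898, each above its main count. Fits with fewer groups or libraries hold fewer samples, but the cause of each of these shifts was not tested. An arm with 1 library left out kept 2 libraries, with the spread pooled over all groups.

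The difference between fibroblasts and MECs gave 1705 genes, 733 when only wildtype and PS libraries were fitted and 893 to 2131 with 1 library left out. With the title number as a replicate block it gave 2022 genes, 1520 of them among the 1705. The labels do not say that a number marks an animal. Deviations of fibroblast and MEC libraries with the same number correlated at 0.10 to 0.27 over 11320 genes, above the 0.1 set for pairing in 11 of 12 pairs, and 12 of 12 correlated best with their own number. Under the block ENSRNOG00000030187 and ENSRNOG00000061254 stayed called, with differences of 2.66 and -11.09, as did ENSRNOG00000057811 (adjusted p = 0.000167).

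ENSRNOG00000030187, ENSRNOG00000005825 and ENSRNOG00000061254 stayed called between PS and wildtype fibroblasts under every alternative run, with log2 fold changes of 3.25 to 4.05, 2.82 to 3.96 and -6.14 to -5.62. DESeq2 gave no adjusted p for ENSRNOG00000057811. The median effect of the fibroblast-enriched genes was -0.10 and became 0.03 with sets from IF libraries. That of the MEC-enriched genes was 0.20 and became -0.02 without PS replicate 2. For adipocyte-enriched genes it was 0.13 and became 0.28 without wildtype replicate 1. Calls by level were not compared at different depths.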
